A study of Mus musculus with 4 samples.

Results

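The respiratory chain genes described here are those whose mouse symbols begin with mt-Nd, mt-Co, mt-Cyt or mt-Atp, which mitochondrial DNA encodes, or with Nduf, Uqcr, Cox4i, Cox5, Cox6, Cox7, Cox8 or Atp5, which nuclear DNA encodes. Symbols ending in -ps were left out. The rule uses names and no measured value. It found 94 of the 18894 genes listed in the tumor or the blood RNA table, 7 encoded by mitochondrial DNA and 87 by nuclear DNA. The nuclear genes comprise 38 genes named as subunits of complex I (Ndufa11b and Ndufs6b among them are annotated as processed pseudogenes), 8 assembly factors of complex I (the Ndufaf genes), 8 genes of complex III, 16 of complex IV and 17 of complex V. Of the 13 protein-coding genes of mitochondrial DNA in the annotation, mt-Nd1, mt-Nd2, mt-Nd4, mt-Nd5, mt-Nd6, mt-Cytb and mt-Co1 are covered and the other 6 were not analysed here.

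Complexes I, III and IV pass electrons from NADH through ubiquinone and cytochrome c to oxygen and pump protons out of the mitochondrial matrix, and complex V, the ATP synthase, uses the proton gradient to make ATP. Apart from complex II, each complex joins subunits from the nuclear genome with a few that are transcribed and translated inside the mitochondrion, so that it draws on both genomes. Mature neutrophils are known for relying mainly on glycolysis and for having few mitochondria, whose membrane potential has been linked to their migration and survival.

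Neutrophils, sorted as CD11b+ Ly6G+ cells, were taken from tumors and from blood of 3 untreated FVB mice that had been injected with Py7160 cells, a mouse mammary tumor line. FVB is an inbred strain, and the labels give no age. Both groups therefore come from tumor-bearing animals, and there was no animal without a tumor. Tumors were digested with enzymes and blood was freed of red cells by lysis. The cells of each mouse carried a hashtag, a DNA-tagged antibody. The 3 tumor samples were pooled into 1 Drop-seq library and the 3 blood samples into another, a method in which droplets capture the RNA of single cells on barcoded beads. Tissue, library and the way the cells were released cannot be told apart.

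Cells with at least 200 detected genes, at most 15% of their UMIs (unique RNA molecules) from mt- genes, and at least 70% of their hashtag counts from 1 hashtag were kept, which gave 841 tumor and 1375 blood cells. Tumor mice 1, 2 and 3 held 106, 564 and 171 cells with 70612, 385370 and 116862 UMIs, and blood mice 511, 456 and 408 cells with 436713, 380059 and 330296 UMIs. The median depth per cell was 570 to 586 UMIs in the tumor mice and 647.5 to 671 in the blood mice. The libraries shared 20 barcodes, none of them among the assigned cells. All 10 neutrophil markers were detected in both tissues, together at 68166 to 82349 CPM in tumor mice and 179793 to 207568 CPM in blood mice (CPM, UMIs of a gene per 1000000 UMIs of the mouse's cells). Ly6g, which encodes a protein used for the sort, measured 45.7 ± 32.4 CPM in tumor and 290 ± 76.0 CPM in blood (SD, n = 3 mice each).

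Markers of other cells were present at unequal levels. All 8 macrophage markers were detected in tumor, together at 283, 1767 and 2028 CPM in mice 1, 2 and 3, against 222 to 291 CPM in blood, where 3 of 8 were detected and C1qa, C1qb, C1qc, Ms4a7 and Mrc1 were at 0. The summed MHC class II and dendritic markers, 4 of 6 detected in each tissue with Flt3 and Xcr1 at 0, stood at 156, 2854 and 2636 CPM in tumor mice and 36.6 to 133 CPM in blood mice. T and NK markers were at 8.56 to 38.9 CPM in tumor (2 of 7 detected, with Cd3e and Cd3g at 0) and 87.8 to 292 CPM in blood (6 of 7). All 5 erythroid markers were at 0 in tumor and together at 13960 to 22154 CPM in blood. Of the 6 tumor epithelium markers 1 was detected in each tissue, at most 8.56 CPM in any mouse, and Krt18, Krt19 and Cdh1 were at 0.

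Promoters of 4 nuclear members that differed between the tissues are shown first, since their direction in the results below can be read beside them. Each window runs from 250 bases before to 50 after the annotated start, 5′ to 3′ on the minus strand, from RefSeq on GRCm38.p6, the assembly that mm10 names. Capitals mark a match to a motif of the factors NRF1 (GCGCA and GCGC with 1 base of any kind between them), ETS (CCGGAAG) or YY1 (AAGATGGC), searched on both strands. Ndufs8 and Cox8a rose in tumor neutrophils and carry 1 and 2 ETS matches. Ndufa8 and Atp5pb fell and carry an NRF1 and a YY1 match.
Ndufs8, chr19:3912725-3913024: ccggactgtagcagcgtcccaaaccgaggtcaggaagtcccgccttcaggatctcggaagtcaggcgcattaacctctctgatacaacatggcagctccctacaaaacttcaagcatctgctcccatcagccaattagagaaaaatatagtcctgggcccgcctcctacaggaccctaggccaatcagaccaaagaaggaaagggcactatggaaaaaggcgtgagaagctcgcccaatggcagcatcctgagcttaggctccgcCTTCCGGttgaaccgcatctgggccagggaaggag
Cox8a, chr19:7217567-7217866: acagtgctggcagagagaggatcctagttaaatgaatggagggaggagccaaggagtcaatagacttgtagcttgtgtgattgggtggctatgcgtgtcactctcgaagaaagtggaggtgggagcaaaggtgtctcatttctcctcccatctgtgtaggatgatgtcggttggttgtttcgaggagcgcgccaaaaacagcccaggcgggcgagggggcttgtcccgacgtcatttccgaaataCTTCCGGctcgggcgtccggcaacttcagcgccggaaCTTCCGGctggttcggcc
Ndufa8, chr2:36049289-36049588: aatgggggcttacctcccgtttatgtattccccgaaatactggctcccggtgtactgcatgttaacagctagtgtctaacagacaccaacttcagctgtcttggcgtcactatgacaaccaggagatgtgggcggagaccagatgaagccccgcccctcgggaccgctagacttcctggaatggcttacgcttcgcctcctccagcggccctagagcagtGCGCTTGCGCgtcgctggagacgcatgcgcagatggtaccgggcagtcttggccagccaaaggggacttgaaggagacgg
Atp5pb, chr3:105959214-105959513: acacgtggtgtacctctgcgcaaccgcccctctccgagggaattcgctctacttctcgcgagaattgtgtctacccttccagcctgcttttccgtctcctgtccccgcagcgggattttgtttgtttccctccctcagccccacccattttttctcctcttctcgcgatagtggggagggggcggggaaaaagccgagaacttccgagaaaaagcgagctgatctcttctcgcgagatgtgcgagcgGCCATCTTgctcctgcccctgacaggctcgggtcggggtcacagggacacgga
The table held a promoter for 71 of the 87 nuclear members. A gene was counted if any of its windows held a match, so genes with several windows had more sequence searched. NRF1 matches occurred in 17 of the 71 genes (23.9%), against 7.17% of 17491 protein-coding genes with a promoter. ETS matches also occurred in 17 (23.9%, against 12.9%), and YY1 matches in 11 (15.5%, against 3.57%). An ETS and a YY1 match can overlap in the letters AAG, and the genes were counted for each motif separately. Among members called higher that had a promoter, 0 of 5 held an NRF1, 2 an ETS and 0 a YY1 match. Among those called lower, 1 of 6 held an NRF1, 1 an ETS and 2 a YY1 match. These counts are too small to set the directions apart, and a match is a string of letters, not a measured binding site.

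The sum of the 7 messenger RNAs of mitochondrial DNA covered here was higher in tumor neutrophils, whereas that of the nuclear genes of the same complexes was not. Most of the 7 encode complex I subunits, and mt-Co1, of complex IV, went the other way. Summed over the 7 mitochondrial genes, levels were 1133, 1163 and 1061 CPM in tumor mice 1, 2 and 3 and 605, 710 and 406 CPM in blood mice. The groups did not overlap, and the ratio of the means (1119 ± 52.2 against 574 ± 155 CPM) was 1.95, or 0.96 on the log2 scale, from 652 tumor and 668 blood UMIs. The 87 nuclear genes together stood at 5636, 6262 and 5870 CPM in tumor mice and 5406, 5844 and 5613 CPM in blood mice, 3497 and 6436 UMIs. These groups overlapped, with a log2 ratio of 0.08. For each mitochondrial UMI there were 5.30 ± 0.289 nuclear UMIs of the chain in tumor and 10.3 ± 3.05 in blood. No p is given for sums over the members, which were chosen with earlier results of these data known.

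**Figure D1:**
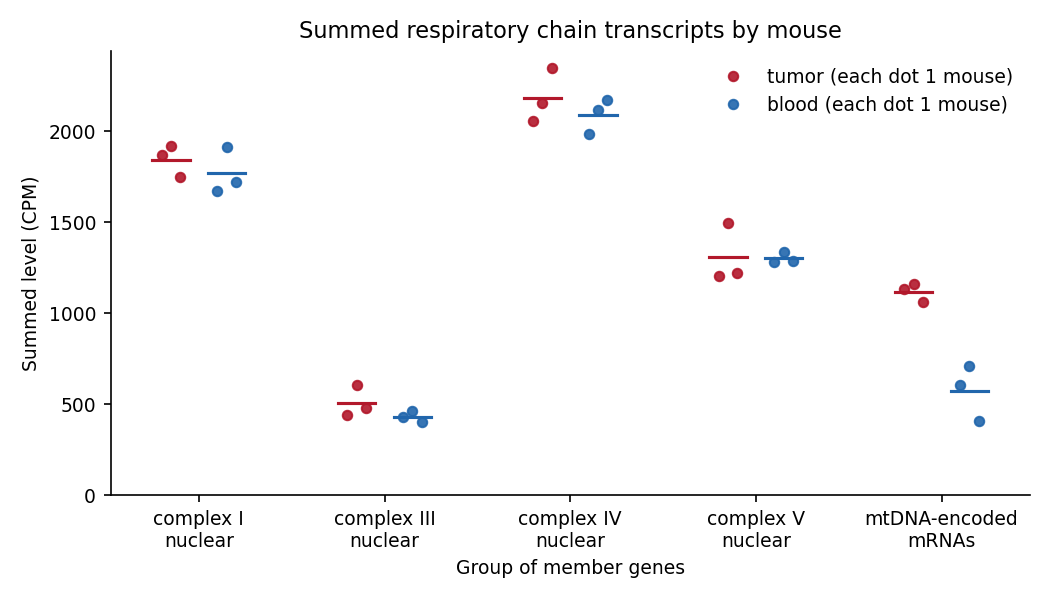
Summed level (CPM) of the nuclear genes of complexes I, III, IV and V and of the mitochondrial messenger RNAs, each dot 1 mouse and each bar the mean of 3. The tumor mice lie above the blood mice for the mitochondrial messenger RNAs (1061 to 1163 against 406 to 710 CPM) and overlap with them in the 4 nuclear groups.

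Gene by gene, 57 members had enough counts for the test, 6 mitochondrial and 51 nuclear. Of these, 13 were higher and 7 lower in tumor neutrophils (edgeR quasi-likelihood test, adjusted p under 0.05), where 30.2% and 29.8% of all 3674 genes tested were called higher and lower. The 22.8% of members called higher and the 12.3% called lower thus lie below the share among all genes. The median log2 fold change was 0.26 over the tested members and −0.04 over all genes. By genome the members divided: 5 of 6 mitochondrial genes were higher and 0 lower, with a median of 1.28 (at an unadjusted p under 0.05, 1 was lower, mt-Co1, and DESeq2 called 0 lower), while 8 of 51 nuclear genes were higher and 7 lower, with a median of 0.23. Every tumor mouse lay above every blood mouse for 9 members and below for 8, of 57, against 29.8% and 33.2% of all genes (63.0% in either direction). Members that were not called are not shown to be alike. On simulated counts of this depth the test found 36% of genes changed 2-fold. The simulation used the same dispersion for all genes and changed few of them, so this share does not carry over to the real fit.

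**Figure D2:**
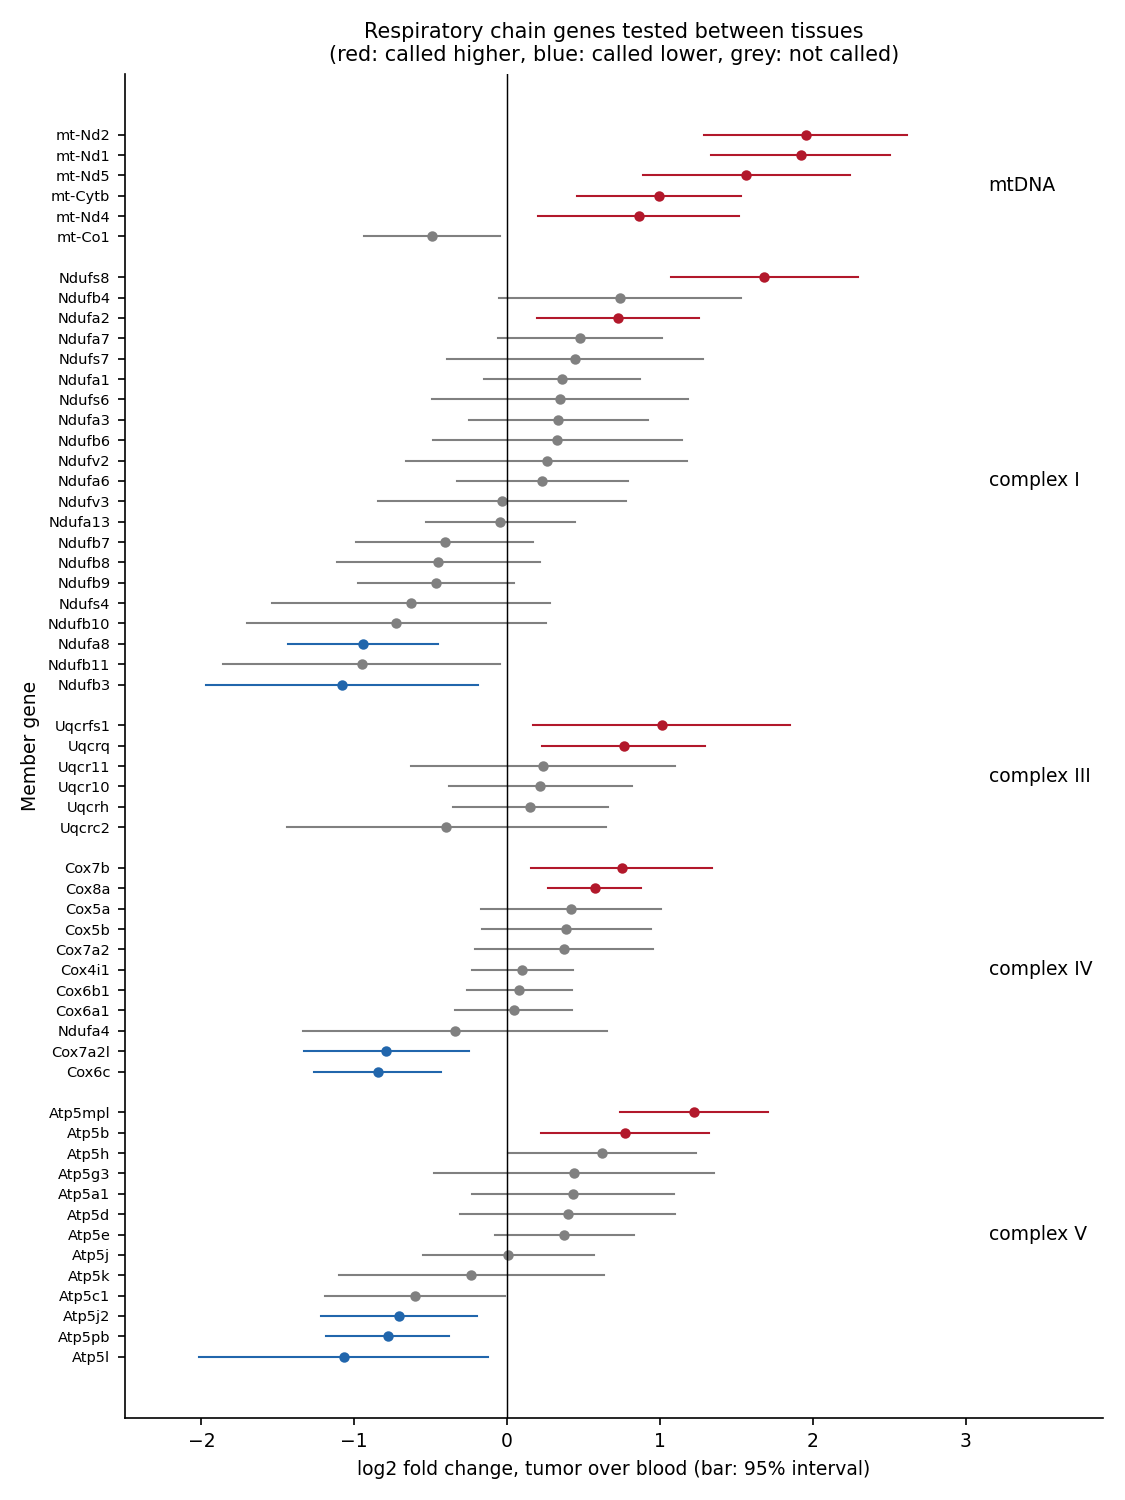
Fitted log2 fold change, tumor over blood, of the 57 tested members with 95% intervals, ordered by size within the mitochondrial genes and within the nuclear genes of each complex. Of the mitochondrial genes, 5 of 6 are called higher, while in complexes I, IV and V called genes lie on both sides of 0.

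Among the mitochondrial genes, 3 that encode complex I subunits had the largest fitted increases. mt-Nd1 (mitochondrial DNA, 2751 to 3707, plus strand), a subunit at the ubiquinone end of the membrane arm, stood at 241, 239 and 171 CPM in tumor mice and 73.3, 71.0 and 30.3 CPM in blood mice. mt-Nd2 (3914 to 4951), a proton-pumping subunit, measured 142, 140 and 171 CPM in tumor and 48.1, 47.4 and 18.2 CPM in blood. mt-Nd5 (11742 to 13565), the proton-pumping subunit at the far end of the arm, reached 241, 272 and 317 CPM in tumor, against 89.3, 158 and 36.3 CPM in blood. In each of the 3 every tumor mouse lay above every blood mouse, and blood mouse 3 was the lowest. The log2 fold changes were 1.92 ± 0.28 for mt-Nd1 (SE, edgeR adjusted p = 1.51e-05), 1.95 ± 0.31 for mt-Nd2 (4.74e-05) and 1.57 ± 0.32 for mt-Nd5 (4.65e-04). These 3 were called in all 19 alternative fits.

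The cytochrome b gene and another complex I gene rose by less and with overlapping mice. mt-Cytb (14145 to 15288), the only mitochondrial subunit of complex III, stood at 312, 236 and 128 CPM in tumor mice and 124, 129 and 84.8 CPM in blood mice. Tumor mouse 3 lay below blood mouse 2, and the gene rose by 0.99 ± 0.25 on the log2 scale (edgeR adjusted p = 0.00277). mt-Nd4 (10167 to 11544), a further proton-pumping subunit, stood at 85.0, 122 and 137 CPM in tumor and 73.3, 89.5 and 36.3 CPM in blood, a rise of 0.86 ± 0.31 (edgeR adjusted p = 0.0248). Tumor mouse 1 lay below blood mouse 2. Without tumor mouse 2 both calls were lost (0.85, adjusted p = 0.0613, and 0.81, adjusted p = 0.156), and that of mt-Nd4 also without tumor mouse 3 (0.0683), blood mouse 1 (0.0616) or blood mouse 3 (0.188). Over the 19 alternative fits mt-Cytb was called in 18 and mt-Nd4 in 10, and mt-Nd4 was lost also with DESeq2 and HTODemux. mt-Nd6, the complex I subunit transcribed from the other strand, was not tested, with 4 tumor and 10 blood UMIs.

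The cytochrome c oxidase gene mt-Co1 did not follow the complex I genes. mt-Co1 (5328 to 6872), the catalytic subunit of complex IV, stood at 99.1, 151 and 120 CPM in tumor mice and 185, 208 and 194 CPM in blood mice. Here every blood mouse lay above every tumor mouse. The fitted log2 fold change was −0.49 ± 0.21 (95% interval −0.94 to −0.05), and with an edgeR adjusted p of 0.0525 it was not called. Over the 19 alternatives its adjusted p ran from 0.00490 to 0.216, it passed in 10, and its fold change was negative in each. The share of mt-Co1 among the UMIs of the 7 mitochondrial members was 11% ± 2.11 in tumor and 35.9% ± 10.3 in blood, without overlap.

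Mitochondrial ribosomal RNA also went the other way. mt-Rnr2, the large ribosomal RNA of the mitochondrion, fell from 54801 ± 3516 CPM in blood to 30371 ± 1526 CPM in tumor (log2 fold change −0.83, edgeR adjusted p = 3.01e-07). mt-Rnr1, the small one, fell from 1365 ± 209 to 799 ± 79.5 CPM (−0.74, adjusted p = 2.61e-04). In neither gene did the mice overlap. mt-Rnr2 made up 94.0% ± 0.199 of all mt- UMIs in tumor and 96.6% ± 0.116 in blood, so the mt- share per cell on which the 15% limit acts measures almost only this RNA. The mitochondrial members numbered 36.9 ± 1.23 UMIs per 1000 UMIs of mt-Rnr2 in tumor and 10.6 ± 3.45 in blood. RNA of the same genome was thus lower in tumor for the ribosomal RNAs and higher for 5 messenger RNAs.

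**Figure D3:**
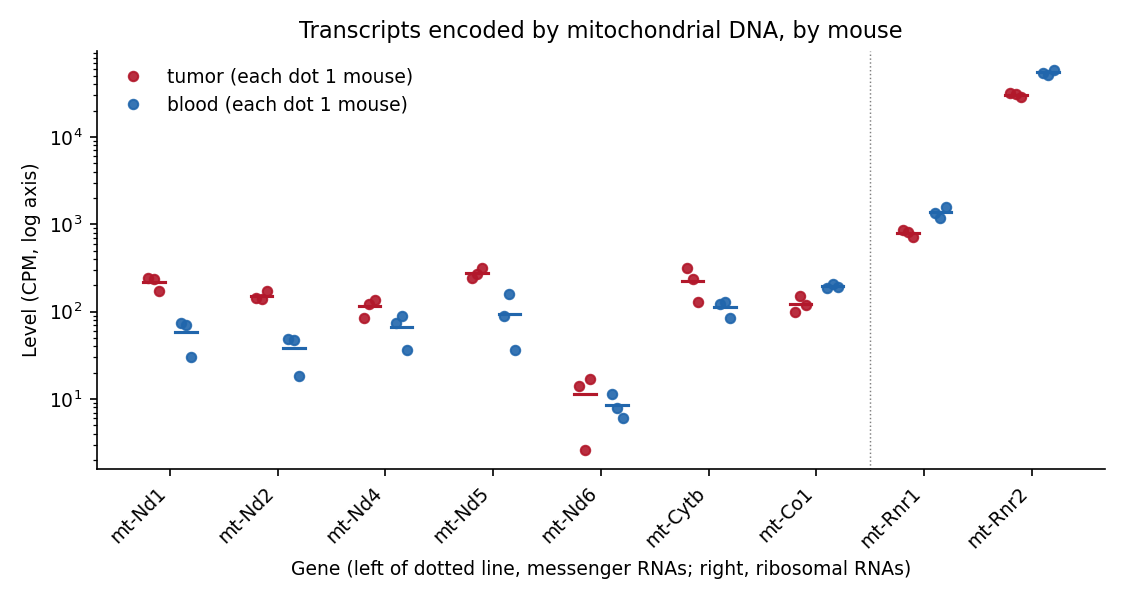
Level (CPM, log axis) of the 7 messenger RNAs and 2 ribosomal RNAs of mitochondrial DNA, each dot 1 mouse and each bar the mean of 3. Tumor mice lie above blood mice for mt-Nd1, mt-Nd2 and mt-Nd5 and below them for mt-Co1, mt-Rnr1 and mt-Rnr2.

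In the nuclear part of complex I, 2 genes rose, 2 fell and the median log2 fold change of the 21 tested was 0.23. Both counts lie below the 30.2% and 29.8% of all genes. Ndufs8 (chr19:3908863-3912774, minus strand), whose protein holds iron-sulfur clusters on the path to ubiquinone, stood at 85.0, 125 and 145 CPM in tumor mice and 38.9, 42.1 and 36.3 CPM in blood mice. The groups did not overlap, and at 1.68 ± 0.29 (edgeR adjusted p = 9.33e-05) it had the largest fitted fold change among the nuclear members. Ndufa2, an accessory subunit of the NADH-oxidizing module, rose by 0.73 ± 0.25 (adjusted p = 0.0190), from 97.6 ± 0.811 to 147 ± 53.3 CPM, with tumor mouse 3 below all blood mice at 85.6 CPM. Ndufa8 (chr2:36036326-36049406, minus strand), a subunit on the intermembrane side, stood at 85.0, 77.8 and 68.5 CPM in tumor against 151, 145 and 163 CPM in blood, without overlap. It fell by 0.95 (SE 0.23, adjusted p = 0.00209). Ndufb3, a small subunit of the membrane arm, fell from 56.6 ± 10.7 to 26.5 ± 17.1 CPM (−1.08 ± 0.42, adjusted p = 0.0354) on 15 tumor UMIs.

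Ndufa7, an accessory subunit of complex I with the most UMIs of the nuclear complex I genes, was not called. It measured 192 ± 36.2 CPM in tumor against 133 ± 46.0 CPM in blood (0.48, 95% interval −0.06 to 1.02). Ndufs8 and Ndufa8 were called in all 19 alternative fits. Ndufa2 lost its call without tumor mouse 2 (0.31, adjusted p = 0.511) and without each blood mouse (0.0808 to 0.0918). Ndufb3 lost it without tumor mouse 2 (adjusted p = 0.110), tumor mouse 3 (0.112) or blood mouse 1 (0.0799). Of the 19 fits Ndufa2 was called in 10 and Ndufb3 in 11, and DESeq2 called neither. Summed over all 38 genes, complex I stood at 1844 ± 88.7 CPM in tumor against 1769 ± 127 CPM in blood, with overlapping mice.

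The 8 assembly factors of complex I were sparse, and none was tested. Together they held 48 UMIs in tumor and 32 in blood, or 70.8, 88.2 and 77.0 CPM in tumor mice and 36.6, 18.4 and 27.2 CPM in blood mice, without overlap. Ndufaf8, the one with the most UMIs, had 15 in tumor and 7 in blood, Ndufaf2 9 and 1, and Ndufaf5 0 in both. No count here is large enough for a statement on a single gene.

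In complex III, 2 of 6 tested genes rose and 0 fell (also 0 at an unadjusted p under 0.05 and 0 by DESeq2), where 30.2% of all genes tested were called higher and 29.8% lower. Their median log2 fold change was 0.23. Uqcrfs1, the Rieske iron-sulfur protein that takes electrons from ubiquinol, stood at 28.3, 51.9 and 34.2 CPM in tumor mice and 27.5, 21.0 and 18.2 CPM in blood mice, on 26 UMIs in each tissue (1.01 ± 0.40, edgeR adjusted p = 0.0366). The groups did not overlap, though tumor mouse 1 and blood mouse 1 lay close. Uqcrq, a small subunit beside cytochrome b, measured 142, 187 and 120 CPM in tumor, against 87.0, 126 and 81.7 CPM in blood, with tumor mouse 3 below blood mouse 2 (0.76 ± 0.25, adjusted p = 0.0151). Uqcrh, the hinge protein near cytochrome c1 and the nuclear complex III gene with the most UMIs, stood at 130 ± 43.3 and 125 ± 18.8 CPM (0.15, 95% interval −0.36 to 0.66). The Uqcrfs1 call was lost without blood mouse 1 (adjusted p = 0.0755), 2 (0.149) or 3 (0.196) and the gene was not tested in 8 of 19 alternative fits. The Uqcrq call was lost without tumor mouse 2 (0.377), blood mouse 1 (0.109) or blood mouse 3 (0.118). Uqcrfs1 was called in 5 of the 19 fits and Uqcrq in 13, and DESeq2 called neither. The complex summed to 508 ± 87.8 CPM in tumor and 433 ± 30.2 CPM in blood, with overlapping mice.

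In complex IV, 2 genes rose, 2 fell (30.2% and 29.8% of all genes) and the median log2 fold change of the 11 tested was 0.10. Cox8a (chr19:7215153-7217616, minus strand), a small membrane subunit, had the most UMIs of the nuclear complex IV genes and stood at 538, 462 and 462 CPM in tumor mice and 334, 308 and 345 CPM in blood mice. The groups did not overlap, and it rose by 0.57 ± 0.15 (edgeR adjusted p = 0.00270). Cox6c (chr15:35925886-35938246, minus strand), another membrane subunit, stood at 99.1, 163 and 163 CPM in tumor against 275, 279 and 297 CPM in blood. It fell by 0.85 (SE 0.20, adjusted p = 0.00134), every tumor mouse lying below every blood mouse. The 2 genes encode subunits of the same enzyme that occur once in each complex. Their messenger RNAs moved in opposite directions in sums over the same cells, and were not compared within single cells.

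Cox7b, a small subunit needed for assembly of the complex, rose from 77.1 ± 20.3 to 131 ± 34.7 CPM (0.75 ± 0.28, edgeR adjusted p = 0.0286) without overlap. Cox7a2l, which joins complexes III and IV into supercomplexes, fell from 144 ± 21.5 to 91.5 ± 31.3 CPM (−0.79 ± 0.26, adjusted p = 0.0135), with tumor mouse 1 above blood mouse 1. Cox4i1, Cox6b1 and Cox6a1, which encode nuclear subunits around the mitochondrially encoded core, were not called and stood at 360 ± 44.6 against 333 ± 24.6, 332 ± 40.5 against 322 ± 24.7 and 209 ± 11 against 211 ± 13.8 CPM. Their 95% intervals were −0.23 to 0.43, −0.26 to 0.42 and −0.34 to 0.43 on the log2 scale. These cover the spread between mice and not a difference between the libraries. Cox6c was called in all 19 alternative fits. Cox8a was lost without blood mouse 2 (0.40, adjusted p = 0.0580), Cox7a2l without tumor mouse 2 (−0.53, 0.233), and Cox7b without tumor mouse 3 (0.124), blood mouse 1 (0.222) or blood mouse 3 (0.0874). Of the 19 fits, Cox8a was called in 17, Cox7a2l in 17 and Cox7b in 11. Cox8a was lost also without the low-count filter, and Cox7a2l and Cox7b with DESeq2. Complex IV summed to 2184 ± 148 CPM in tumor and 2091 ± 95.2 CPM in blood, with overlapping mice.

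In complex V, 2 genes rose, 3 fell (30.2% and 29.8% of all genes) and the median log2 fold change of the 13 tested was 0.37. Atp5mpl (chr12:111961375-111966977, minus strand), a small membrane proteolipid of the ATP synthase, stood at 156, 148 and 171 CPM in tumor mice and 66.4, 65.8 and 72.7 CPM in blood mice, without overlap (1.22 ± 0.23, edgeR adjusted p = 2.12e-04). Atp5b, the catalytic beta subunit, rose from 68.1 ± 4.96 to 104 ± 19.8 CPM (0.77 ± 0.26, adjusted p = 0.0169). Atp5pb, subunit b of the stalk that holds the catalytic head, had the most UMIs in the complex and stood at 184, 135 and 163 CPM in tumor against 256, 279 and 260 CPM in blood. It fell by 0.78 (SE 0.19, adjusted p = 0.00192), without overlap. The membrane subunits Atp5j2 (−0.71 ± 0.24, adjusted p = 0.0180) and Atp5l (−1.07 ± 0.45, adjusted p = 0.0487, on 10 tumor UMIs) fell too, the mice not overlapping in either.

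Atp5mpl was called in all 19 alternative fits. Without tumor mouse 2, Atp5b (0.52, adjusted p = 0.292), Atp5j2 (0.126), Atp5l (0.350) and Atp5pb (0.0577) lost their calls. Atp5b lost it also without each blood mouse (0.0513 to 0.0902), and Atp5l without tumor mouse 1 (0.0544), tumor mouse 3 (0.0911) or blood mouse 3 (0.0691). Of the 19 fits, Atp5pb was called in 18, Atp5j2 in 16, Atp5b in 11 and Atp5l in 6, and Atp5l was not tested in 6. DESeq2 called none of Atp5j2, Atp5b and Atp5l. Complex V summed to 1307 ± 163 CPM in tumor and 1301 ± 28.8 CPM in blood, with overlapping mice. The called genes include a catalytic, a stalk and several membrane subunits, and the membrane subunits were called in both directions.

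Isoforms that other tissues use were near 0. Cox4i2, the lung and hypoxia-linked form of subunit 4, had 0 UMIs in both tissues, the testis form Cox6b2 had 0 in tumor and 1 in blood, and the muscle form Cox7a1 had 1 and 0. Of the genes for the c ring of the ATP synthase, Atp5g3 was tested and not called (27.7 ± 21.0 against 29.3 ± 4.39 CPM), Atp5g1 had 13 tumor and 6 blood UMIs, and Atp5g2 had 1 and 0. With 572844 tumor and 1147068 blood UMIs in all, Cox4i2, Cox6b2, Cox7a1 and Atp5g2 were at or near the detection limit. In total 37 members were not tested, with 0 to 46 UMIs each over both tissues, and 2 of them (Cox4i2 and Ndufaf5) had 0 in both. Cox6c2, Ndufa11b and Ndufs6b are annotated as processed pseudogenes. Nuclear respiratory chain genes have many such copies, and no source used here says how shared reads were counted. Counts of single members may therefore hold or lack reads of a copy.

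The mitochondrial messenger RNAs were concentrated in few cells. Of the 841 tumor cells 255 (30.3%) held a UMI of the 7 genes, and of the 1375 blood cells 305 (22.2%). The 5% of cells with the most such UMIs held 57.7% of them in tumor and 59.4% in blood, with a maximum of 106 in 1 tumor cell and 27 in 1 blood cell. At a fixed depth of 441 UMIs per cell, which left out 209 tumor and 254 blood cells, the expected share of cells with such a UMI was 26.2% ± 2.09 in tumor and 13.7% ± 1.88 in blood, without overlap. For the nuclear members it was 78.8% ± 1.91 in tumor and 87.5% ± 1.69 in blood, also without overlap but in the other direction.

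Cells that held at least 2 UMIs of markers of another cell type (erythroid markers not counted), 78 in tumor and 110 in blood, carried a large part of the mitochondrial messenger RNA. They held 44.5% of it in tumor and 46.6% in blood, against 14.7% and 13% of all UMIs, and 20.8% and 16.1% of the nuclear members' UMIs. Without them the mitochondrial members stood at 1067, 686 and 710 CPM in tumor mice and at 351 ± 69.8 CPM in blood, a log2 ratio of 1.22, larger than with them. The fold changes of mt-Nd1, mt-Nd2 and mt-Nd5 were then 2.65, 2.66 and 2.39 (edgeR adjusted p = 6.61e-06, 1.24e-05 and 4.11e-07), and the nuclear sum kept a log2 ratio of 0.04.

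The direction of the nuclear sum changed with the depth per cell, and that of the mitochondrial sum did not. In cells with 200 or more and under 300, 300 or more and under 500, and at least 500 detected genes, the mitochondrial members stood at 786 ± 168, 880 ± 214 and 2257 ± 566 CPM in tumor, against 243 ± 72.9, 411 ± 125 and 980 ± 366 CPM in blood. The tumor mice lay above the blood mice in each range, with log2 ratios of 1.69, 1.10 and 1.20. The nuclear members stood at 4683 ± 411, 5664 ± 656 and 9001 ± 2397 CPM in tumor, against 5531 ± 34.7, 5464 ± 109 and 5894 ± 515 CPM in blood. Here the direction turned, from a log2 ratio of −0.24 in the shallowest cells to 0.61 in those with at least 500 genes, of which there were 80 in tumor and 231 in blood. Tumor mice 1, 2 and 3 held 9, 60 and 11 of the 80, so the values of mice 1 and 3 rest on few cells. Among cells with at least 500 genes, those with under 2 UMIs of markers of another type stood at 8345 ± 984 CPM in tumor against 5435 ± 418 CPM in blood. The tumor mice held 8, 36 and 9 such cells.

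**Figure D4:**
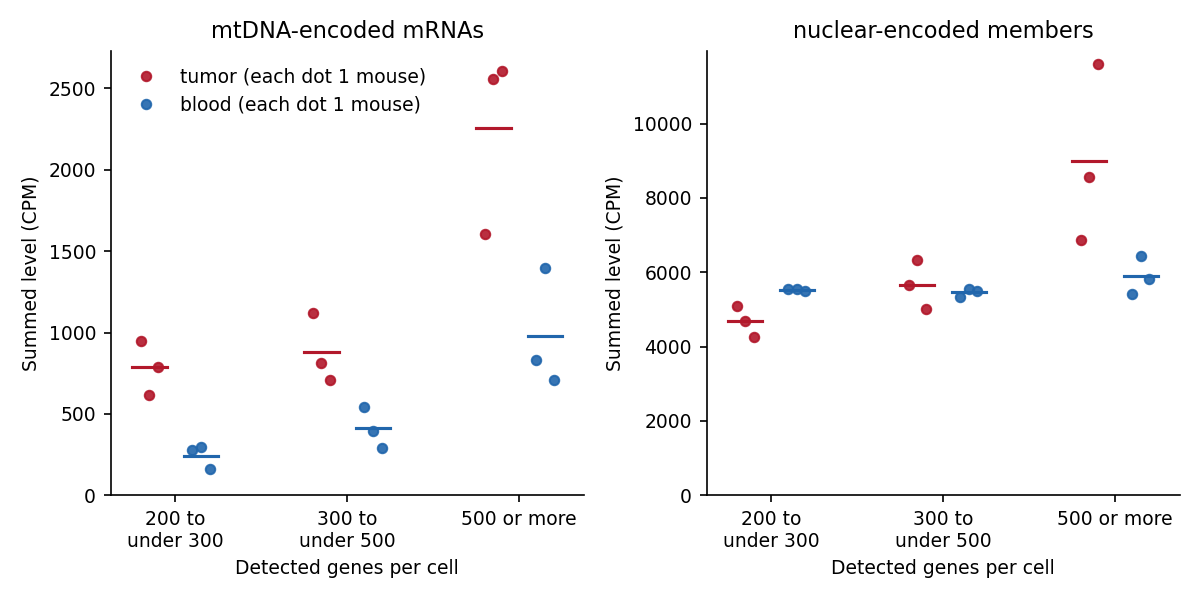
Summed level (CPM) of the mitochondrial messenger RNAs and of the nuclear members in cells grouped by the number of detected genes, each dot 1 mouse and each bar the mean of 3. The tumor mice lie above the blood mice in all 3 groups on the left, while on the right they lie below them under 300 genes and above them at 500 or more.

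RNA outside cells (free RNA) was taken to be that of barcodes with 20 to 60 UMIs, below the limit set for cells. Whether these barcodes hold only such RNA was not tested. In tumor the mitochondrial members stood there at 2254 CPM (95% Poisson interval 2077 to 2441, counting error only, 5945 barcodes), above their level in cells, and in blood at 369 CPM (297 to 452, 6739 barcodes), below it. The nuclear members were lower there than in cells in both tissues, at 2004 CPM (1838 to 2180) in tumor and 1616 CPM (1461 to 1782) in blood. By gene, mt-Nd1 stood at 407 CPM in the tumor barcodes and 225 CPM in the pooled tumor cells, mt-Nd5 at 664 and 278, and mt-Cytb at 478 and 223. mt-Co1 did not differ in this way, at 146 CPM (103 to 199) and 138 CPM (109 to 172). mt-Rnr2 made up 333053 CPM of the tumor barcodes and 378349 CPM of those of blood.

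These barcodes of the tumor library, taken as free RNA, thus held the mitochondrial messenger RNAs at a higher level than those of blood, as the tumor cells did. mt-Rnr2, much more abundant in these barcodes, stood at 30333 CPM in the pooled tumor cells and 54605 CPM in those of blood. If every mt-Rnr2 UMI of the cells were counted as free RNA of the composition found in these barcodes, such RNA would make up 9.11% of the UMIs of tumor cells and 14.4% of those of blood cells. It would then carry at most 205 of the 1138 CPM of mitochondrial members in the pooled tumor cells and 53.2 of the 582 CPM in those of blood. At 441 UMIs it would give at most 8.65% of tumor and 2.32% of blood cells a UMI of the 7 genes, against the 26.2% and 13.7% measured. These bounds were computed after the other results were seen and rest on that composition, which was not tested within cells. RNA of these barcodes alone, filling all 441 UMIs, would give a UMI of the 7 genes to 63.03% of tumor and 15.003% of blood cells. Both values lie above the measured shares. How far free RNA accounts for the difference between the tissues was not tested.

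**Figure D5:**
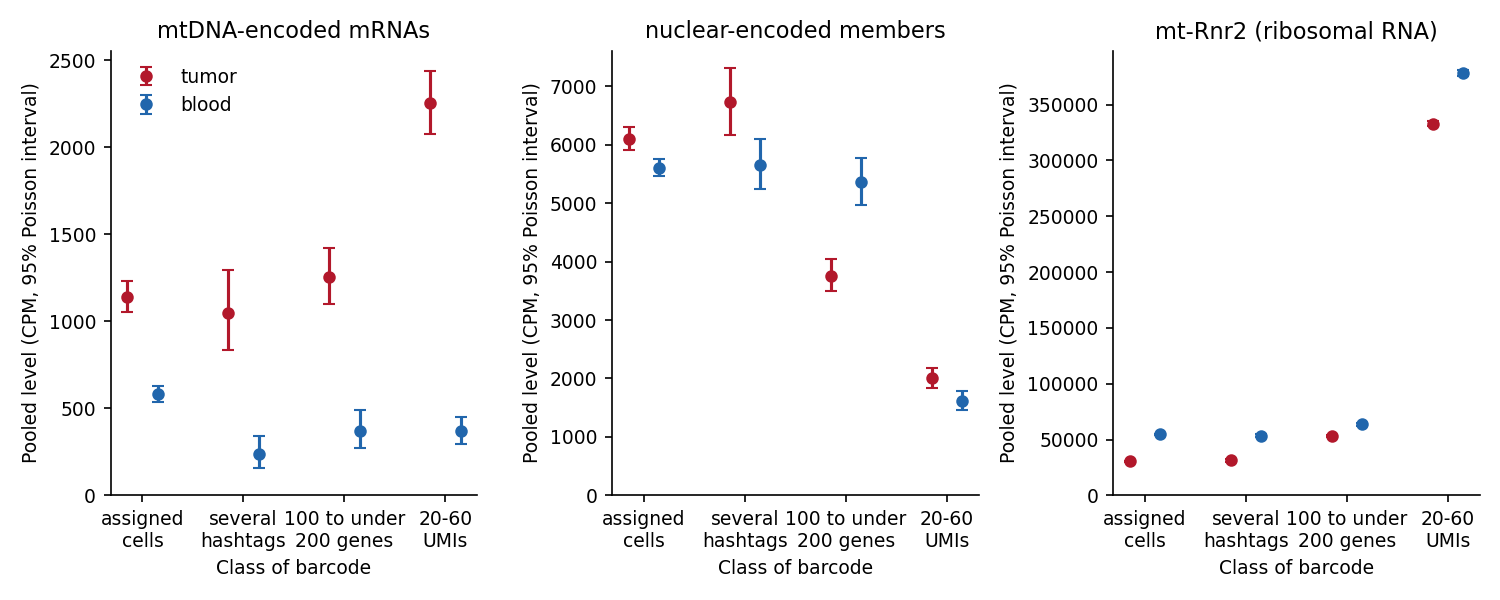
Pooled level (CPM, 95% Poisson interval, counting error only) of the mitochondrial messenger RNAs, the nuclear members and mt-Rnr2 in assigned cells, barcodes with several hashtags, barcodes with 100 or more and under 200 genes and barcodes with 20 to 60 UMIs. In tumor the mitochondrial messenger RNAs stand higher in the barcodes with 20 to 60 UMIs (2254 CPM) than in cells, while the nuclear members stand lower there in both tissues.

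Other genes that serve the chain were compared in lists drawn up by function, with earlier results of these data known. Counts of called genes in them stand beside the 30.2% called higher and 29.8% called lower among all genes tested, and with lists this small nothing particular to a list is read from them. Of complex II, which mitochondrial DNA does not encode at all, 4 of 8 genes were tested: Sdhd, a membrane anchor, fell from 101 ± 15.1 to 46.1 ± 20.5 CPM (−1.07, edgeR adjusted p = 0.00738). In this list 0 rose, as at an unadjusted p under 0.05 and by DESeq2. Of 3 tested genes of electron carriers and ubiquinone, Coq10b, a ubiquinone-binding protein, rose from 20.5 ± 9.64 to 183 ± 44.3 CPM (2.99, adjusted p = 1.36e-06). Sqor, which passes electrons from sulfide to ubiquinone, fell from 82.2 ± 6.83 to 35.7 ± 8.86 CPM (−1.13, adjusted p = 0.00726). Of 7 tested assembly and supercomplex factors outside the rule 2 rose and 3 fell. Cox17, which carries copper to complex IV, rose from 306 ± 23.0 to 786 ± 121 CPM (1.34, adjusted p = 5.85e-07), and Higd1a, a hypoxia-induced partner of complex IV, rose by 2.26 (adjusted p = 1.58e-05). Cox14, an assembly factor for the mt-Co1 protein, fell by 1.08 (adjusted p = 0.0169), and Atpif1, the inhibitor of the ATP synthase, by 0.76 (adjusted p = 0.0480).

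The genes that transcribe and process mitochondrial RNA were too sparse to test, 0 of 30 passing the low-count filter. Without the filter 28 could be fitted, with 0 called by edgeR, 3 at an unadjusted p under 0.05, and a median of −0.45. Of 15 tested genes of the mitochondrial ribosome (77 listed), 3 rose and 2 fell. Their median was −0.39 against −0.04 over all genes. Mrpl33 fell from 936 ± 36.8 to 355 ± 22.2 CPM (−1.39, edgeR adjusted p = 2.08e-07) and Mrpl43 by 1.12 (0.0155), while Mrpl45 rose by 3.62 (2.61e-06) and Mrpl52 by 3.30 (5.79e-06). Without the filter the median of the 77 was 0.22, of the opposite sign, so the list as a whole has no stable direction.

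Of 14 tested import components and inner membrane carriers 5 rose and 3 fell (median 0.24), near the shares of 30.2% and 29.8% among all genes. Slc25a3, which imports the phosphate used by complex V, rose from 82.8 ± 22.7 to 366 ± 85.3 CPM (2.28, edgeR adjusted p = 1.90e-07), and the import chaperone Timm8b rose by 1.35 (9.14e-04). Timm10b, another import protein, fell from 336 ± 38.9 to 61.8 ± 24.4 CPM (−2.24, adjusted p = 5.81e-07), and the oxoglutarate carrier Slc25a11 fell by 1.81 (8.75e-04). Of 8 tested regulators of biogenesis, mitophagy and hypoxia 4 rose and 1 fell (median 1.22), beside the same 30.2% and 29.8%. The mitophagy receptors Bnip3 and Bnip3l rose by 2.76 (adjusted p = 1.51e-08) and 1.56 (2.52e-05), and Hif1a, the oxygen-regulated transcription factor, by 1.80 (3.50e-06). Fis1, which takes part in mitochondrial fission, fell from 283 ± 30.1 to 123 ± 7.94 CPM (−1.19, adjusted p = 6.20e-05).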

How the data were processed

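The authors deposited raw UMI counts per gene and barcode and raw hashtag counts per barcode, whole numbers per the file headers and values, for 1 tumor and 1 blood library. Per the submitters' processing notes, STAR and mm10 were used. No source used here gives the gene counter, its annotation or a barcode filter. The tables hold 15901 genes with 1315437 UMIs (tumor) and 15236 genes with 1969947 UMIs (blood), each over 10000 barcodes. A gene listed in 1 table was given 0 in the other.

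Of 963 tumor and 1541 blood barcodes with at least 200 genes, 16 and 7 exceeded 15% mt- UMIs, 3 and 5 had no hashtag counts, and 103 and 154 had under 70% of them (at least 10) from 1 hashtag and were dropped as possible doublets. No other doublet caller was run. Counts were summed per mouse and tissue. The 3 mice are separate animals, but the labels do not say that a hashtag marks the same mouse in both tissues. The main fit therefore has no term for the mouse. Its p-values treat the tumor and blood sums as independent, although both tissues came from 3 mice. Tumor mouse 2 depends on the rule: HTODemux (Seurat 5.3.0) gives it 243 cells in place of 564.

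The sums were compared in edgeR 4.0.16 under R 4.3.3 (quasi-likelihood test, default low-count filter, TMM scaling, no covariate besides tissue), with p-values adjusted by Benjamini-Hochberg over all 3674 genes tested. SEs and intervals derive from its F statistic. DESeq2 1.42.0, other filters and hashtag rules, and leaving out each mouse were alternatives. On simulated counts of 3325 genes the test found 32 of 89 true 2-fold changes (36%) and 73 of 82 true 4-fold changes (89%), with 9 calls among 3154 genes without a change. The simulation used the same dispersion for all genes and changed few of them, so these shares do not carry over to the real fit. Shares of cells at fixed depth are exact expected values over all draws. Gene positions are from GENCODE vM21 (GRCm38, that is mm10), and promoters from RefSeq on GRCm38.p6. Poisson intervals cover counting error only.

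The members and lists were chosen with earlier results of these data known. Named genes are all called members, the member with the most UMIs in each complex and genome, all mitochondrial members, tissue-restricted isoforms, and from each other list at most the 4 called genes with the most UMIs.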

Additional observations from a re-analysis of the deposited data

Results flagged for a closer look

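Mitochondrial messenger RNAs appeared outside the cells that were compared. In tumor barcodes with 20 to 60 UMIs the 7 mitochondrial members stood at 2254 CPM (95% Poisson interval 2077 to 2441), above the 369 CPM (297 to 452) of the corresponding blood barcodes. In the 16 tumor barcodes with over 15% mt- UMIs, which were left out for that share, they stood at 14867 CPM (12306 to 17804), against 5916 CPM (3962 to 8496) in 7 blood barcodes. Barcodes over 15% were chosen by their mt- share, of which the 7 members are a part, so the value there is not independent of the choice. mt-Rnr2, the larger part of that share, stood at 187098 CPM in those tumor barcodes and 153203 CPM in those of blood. The nuclear members stood at 2394 CPM in those tumor barcodes and 11220 CPM in those of blood.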

How the results depend on the processing

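Of the 20 called members, mt-Nd1, mt-Nd2, mt-Nd5, Ndufs8, Ndufa8, Cox6c and Atp5mpl passed in all 19 alternative fits, and no call changed sign in any. Members called higher numbered 7 with DESeq2, 8 without the low-count filter and 8 with the hashtag number as a replicate block, against 13, and 7 to 15 with each mouse left out. Members called lower numbered 3 with DESeq2 and 4 in cells with at least 300 genes, against 7, and 3 to 11 with each mouse left out. The low ends, 7 and 3, were without tumor mouse 2, which holds most tumor UMIs, and 9 of the 20 calls were then kept. The highest lower count, 11, was without blood mouse 3. Same-numbered samples correlated at 0.0226, 0.00894 and −0.0228, and the others at −0.0501 to 0.0512. With no pair known to come from the same mouse, these values cannot decide whether a hashtag number marks the same mouse in both tissues. The fit with the block kept 13 calls and gave 5 lower. The log2 ratio of the mitochondrial sum was 0.77 to 1.15 with each mouse left out and 1.69 in cells with under 300 genes. That of the nuclear sum was −0.0204 with at least 150 genes, 0.23 with at least 300, and −0.24 and 0.61 in cells with under 300 and at least 500 genes, the depth groups being chosen after seeing the data. It was 0.03 to 0.11 with each mouse left out. Uqcrh turned to −0.10 without the low-count filter and to −0.0526 and −0.0646 without blood mouse 2 and 3 (0.27 at most, without tumor mouse 1), and the cause was not tested. mt-Co1, not called at 0.0525, was called lower in 10 of the alternatives. Depth limits single members: called genes such as Atp5l and Ndufb3 rest on 10 and 15 tumor UMIs.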

Other observations

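Ndufb1-ps, which the rule leaves out by its name although it held most UMIs of the 9 such symbols, measured 161 ± 29.7 CPM in tumor against 199 ± 14.5 CPM in blood (log2 fold change −0.17, edgeR adjusted p = 0.513), every blood mouse lying above every tumor mouse. The 11 mitochondrial transfer RNA genes listed held 13 UMIs in tumor and 7 in blood.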
